A study of Mus musculus with 6 samples.

Results

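Stabilin-2 transcript stood 3.87-fold higher in prolactin-treated mouse islets than in control islets, while its paralog stabilin-1 and 8 other genes that make, bind or break down hyaluronan had smaller differences, between 0.678-fold and 1.35-fold. These 10 genes are the scavenger receptors Stab1 and Stab2, the hyaluronan receptors Lyve1, Cd44 and Hmmr, the synthases Has1, Has2 and Has3, and the hyaluronidases Hyal1 and Hyal2, out of 48397 genes in the count tables. They were found by gene name and chosen from function around Stab2, which was picked on its difference between prolactin and control in these same libraries. The prolactin contrast of the 10 genes is therefore given as a description, with its spread and with no p-value. All 10 passed the filter on low counts, as did 23924 genes in all.

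The islets came from wild-type C57B6 mice, recovered overnight and were then kept for 24 h with 500 ng/mL of recombinant mouse prolactin (3 libraries) or with DMSO alone (3 control libraries). Both groups were whole islets of mixed cell type and carried no genetic change, and the labels do not say whether a replicate is a separate animal or culture, so a p-value here covers the variation among these libraries alone, possibly of technical origin. Between 230833584 and 530296257 reads per library were assigned to genes. The endocrine markers Ins2 (79029 ± 9802 CPM in control, SD, n = 3) and Gcg (28088 ± 6684 CPM) were abundant, as the tissue label implies. Of 12 endocrine markers, Sst, the somatostatin gene, fell (from 2401 ± 134 to 1821 ± 31 CPM, edgeR adjusted p = 0.0475, with a range from 1.45e-06 to 0.264 over 16 alternative fits, of which 8 passed). Ppy, the pancreatic polypeptide gene, had the largest difference of these markers (3394 ± 232 and 2039 ± 486 CPM, log2 change -0.74, edgeR adjusted p = 0.0692), and Slc2a2, which encodes the glucose transporter GLUT2, had a log2 change of -0.30. DESeq2 called 2 of the 12 lower and the replicate block 3. CPM are counts-per-million values after scaling of the library totals. Prolactin replicates 2 and 3 were closer to each other than any other pair of libraries. Their chi-square per degree of freedom was 6.46, against 75.3 and 86.0 for the other prolactin pairs. This measure takes reads as independent, which mates counted separately would not be, so it does not settle whether these replicates share a source. They were kept as separate libraries, and a fit with them summed is among the alternatives.

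Hyaluronan is a long unbranched sugar polymer that is spun out of the cell by synthases in the plasma membrane and fills the space between cells. CD44 and LYVE-1 bind it at the cell surface, the stabilins take it up for degradation, and hyaluronidases cut it outside cells and in lysosomes. Stabilin-2, also known as the hyaluronan receptor for endocytosis, is best known from the sinusoidal endothelium of liver, spleen and lymph node, where it clears hyaluronan and other ligands from blood and lymph. In islets, hyaluronan lies in the matrix around the capillaries and the endocrine cells.

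Stab2 and Stab1 are the paralogous pair among the members, and the windows from 250 bases before to 50 bases after their RefSeq starts are shown because one transcript differed several-fold between conditions and the other did not. Both are written 5′ to 3′ on the minus strand of GRCm38.p6, with every GGAA or its complement TTCC in capitals, the core letters that ETS-family factors, among them endothelial ones, are known to bind.

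Stab2, chr10:87007893-87008192: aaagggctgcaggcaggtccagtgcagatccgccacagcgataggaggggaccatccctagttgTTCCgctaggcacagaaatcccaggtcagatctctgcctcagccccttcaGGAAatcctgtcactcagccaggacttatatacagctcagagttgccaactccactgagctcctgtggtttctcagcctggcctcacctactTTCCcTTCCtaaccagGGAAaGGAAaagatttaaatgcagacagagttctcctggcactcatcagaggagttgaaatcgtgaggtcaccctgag

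Stab1, chr14:31168592-31168891: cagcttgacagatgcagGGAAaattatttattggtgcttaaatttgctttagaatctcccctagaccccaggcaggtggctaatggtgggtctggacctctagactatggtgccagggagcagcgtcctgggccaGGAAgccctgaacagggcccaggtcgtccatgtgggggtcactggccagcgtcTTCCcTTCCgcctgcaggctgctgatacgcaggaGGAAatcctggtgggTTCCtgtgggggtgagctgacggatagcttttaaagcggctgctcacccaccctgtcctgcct

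Each window held 6 matches to GGAA on either strand, a number that 15.7% of 32851 RefSeq promoter windows of this length reach, against a median of 3. The STAT5 consensus TTCNNNGAA, which reads the same on both strands, had no match in either window. It was matched in 0 of the 7 members with a promoter entry (Stab1, Stab2, Cd44, Has1, Hyal1, Hyal2 and Hmmr) and in 8.30% of all such windows. The Stab2 window had 4 CpG dinucleotides and the Stab1 window 7, which is also the median over all windows, while those of Hyal2 and Hmmr had 18 and 16. Lyve1, Has2 and Has3 had no entry. Letters within 300 bases say nothing about binding elsewhere at these loci.

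Stab2 (chromosome 10, 86841198 to 87008025, mm10, minus strand, 72 merged exons) measured 2.46, 2.07 and 2.28 CPM in control replicates 1, 2 and 3 and 8.24, 9.12 and 9.10 CPM in the prolactin replicates. The lowest prolactin library thus stood 3.35-fold above the highest control library, and within each condition the libraries lay close together, with a coefficient of variation of 8.46% in control and 5.74% in prolactin. The means were 2.27 ± 0.19 and 8.82 ± 0.51 CPM (SD, n = 3), a log2 change of 1.95 (SE 0.092). At least 563 reads lay behind each value. Leaving out any single library moved the log2 change no further than 1.89 to 2.02.

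Stab1 (chromosome 14, 31139013 to 31168641, minus strand), a receptor of sinusoidal endothelium and of some macrophages, measured 7.08, 7.86 and 10.9 CPM in the control replicates and 11.34, 12.02 and 11.36 CPM in the prolactin replicates. The prolactin libraries all lay above the control libraries, but control replicate 3 came within 1.04-fold of the lowest of them. The means were 8.61 ± 2.01 and 11.6 ± 0.4 CPM, a log2 change of 0.43 (SE 0.14), which was 0.63 without control replicate 3 and 0.30 without control replicate 1. Per length, the stabilins were unequal in control and nearly level in prolactin: the ratio of Stab2 to Stab1 was 0.408, 0.310 and 0.245 in the control libraries and 0.853, 0.892 and 0.941 in the prolactin libraries.

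Lyve1 (chromosome 7, 110850607 to 110863239), a hyaluronan receptor of lymphatic endothelium and of tissue macrophages, measured 6.11, 7.23 and 6.78 CPM in control and 7.31, 8.01 and 8.23 CPM in prolactin. The 2 groups were separated by 1.01-fold at their nearest libraries, and the log2 change was 0.23 (SE 0.087). Cd44 (chromosome 2, 102811141 to 102901665), a broadly expressed hyaluronan receptor, had the highest level of the members, with 111.3, 109.8 and 99.8 CPM in control and 133.9, 124.8 and 126.0 CPM in prolactin. Its groups did not overlap either, and its log2 change of 0.26 (SE 0.060) had the smallest error of the 10. The gene-level counts do not tell the CD44 splice variants apart.

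**Figure D1:**
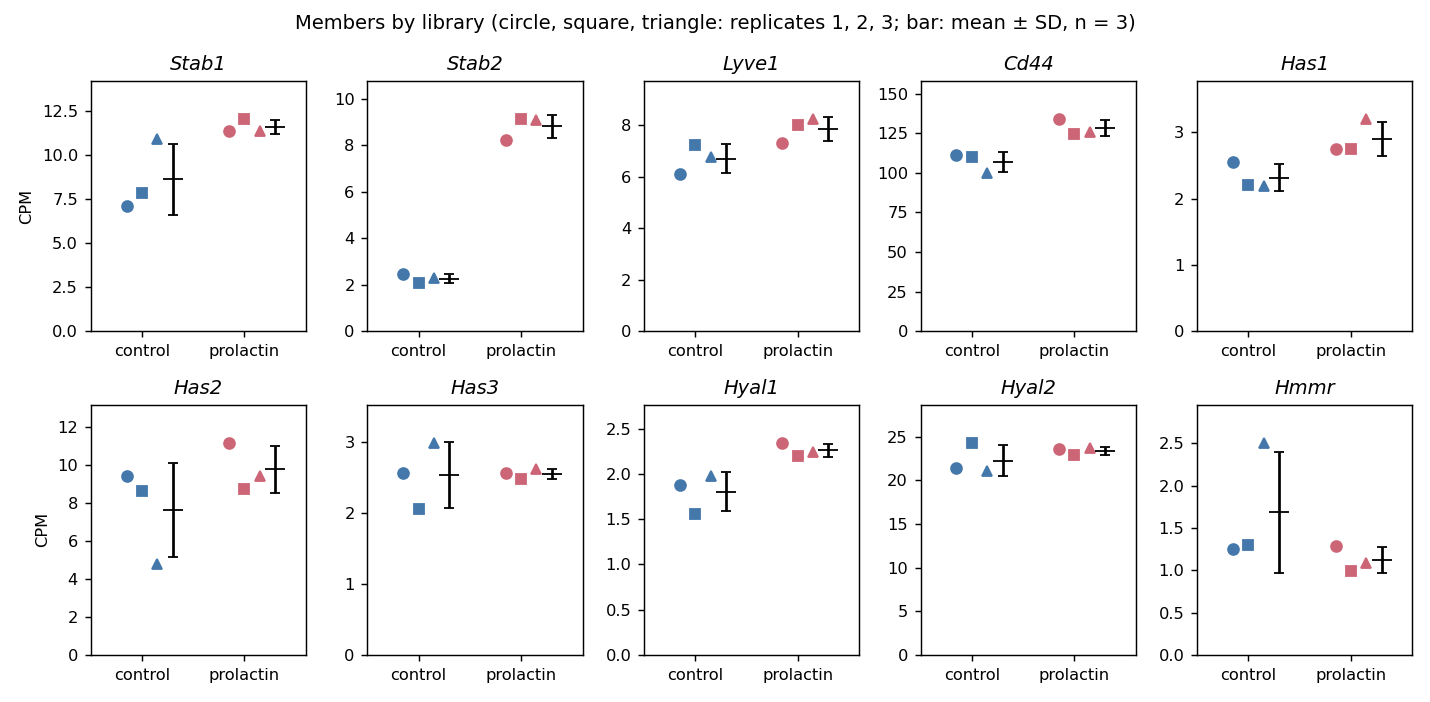
Level of each of the 10 genes in each library, in CPM on axes that start at 0, with circles, squares and triangles for replicates 1, 2 and 3 and bars for mean ± SD (n = 3 per condition). Stab2 is the gene whose prolactin libraries (8.24 to 9.12 CPM) stand well clear of the control libraries (2.07 to 2.46 CPM), and control replicate 3 stands apart from the other controls for Stab1, Has2 and Hmmr.

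The synthases differed in how steady they were. Has1 (chromosome 17, 17843328 to 17855188) measured 2.56, 2.21 and 2.19 CPM in control and 2.75, 2.74 and 3.20 CPM in prolactin, groups that did not overlap, with a log2 change of 0.32 (SE 0.11). Has2 (chromosome 15, 56665627 to 56694539), the isoform that embryonic development depends on, measured 9.42, 8.62 and 4.79 CPM in control and 11.2, 8.75 and 9.39 CPM in prolactin. Its groups overlapped, and the log2 change of 0.35 (SE 0.22, 95% interval from -0.13 to 0.84) became 0.11 without control replicate 3. Has3 (chromosome 8, 106870242 to 106884566) measured 2.56, 2.06 and 2.99 CPM in control and 2.56, 2.48 and 2.62 CPM in prolactin, so that the prolactin libraries fell inside the control range. Its log2 change of 0.01 had a 95% interval from -0.30 to 0.32.

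The low Has2 value of control replicate 3 went with a low level of stromal markers in that library. The summed level of 12 fibroblast, stellate-cell and pericyte markers was 376.1 CPM there, against 560.5 and 543.1 CPM in the other controls and 754.5 to 931.5 CPM in prolactin. Control replicate 3 also had the highest acinar marker sum of any library, 2739 CPM, against 1423 and 494.1 CPM in control replicates 1 and 2. Among the stromal markers the following held. Col1a1 and Col1a2, the chains of collagen I, rose (log2 change 0.86, adjusted p = 0.0351, and 0.92, adjusted p = 0.0452, edgeR's quasi-likelihood test), and 10 of the 12 markers did not pass; with prolactin replicates 2 and 3 summed into 1 library, edgeR called 0 of them (5 higher at an unadjusted p under 0.05). Neither collagen gene passed when any 1 of the 5 libraries other than control replicate 3 was left out. The part of this difference in the Has2 and Has1 values was not tested.

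Both hyaluronidases had modest differences. Hyal1 (chromosome 9, 107576927 to 107581710), the lysosomal enzyme, measured 1.87, 1.56 and 1.97 CPM in control and 2.34, 2.20 and 2.24 CPM in prolactin, with no overlap and a log2 change of 0.32 (SE 0.12). Its exons share 51.9% of their bases with other genes, 1920 of them with Nat6 on the same strand, and the recorded counting gives reads that touch both genes to neither, so its level is understated. Hyal2 (chromosome 9, 107567945 to 107572779), which is anchored at the cell surface and cuts large hyaluronan, measured 21.4, 24.3 and 21.0 CPM in control and 23.6, 22.8 and 23.6 CPM in prolactin. The groups overlapped, and the log2 change of 0.07 had a 95% interval from -0.08 to 0.23.

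Hmmr (chromosome 11, 40701395 to 40733422), named as a hyaluronan-mediated motility receptor and also a protein of the mitotic spindle, was the 1 member with a lower mean in prolactin. It measured 1.25, 1.30 and 2.51 CPM in control and 1.29, 0.993 and 1.08 CPM in prolactin, so the groups overlapped and control replicate 3 stood at nearly the sum of the other controls. The log2 change of -0.56 (SE 0.27) became -0.18 without control replicate 3. The mitosis genes followed the same libraries: 15 of them, such as Mki67 and Top2a, summed to 81.4 CPM in control replicate 3, to 51.3 and 49.5 CPM in control replicates 1 and 2, and to between 42.12 and 49.99 CPM in prolactin. Per 100 CPM of that sum, Hmmr amounted to between 2.36 and 3.08 CPM in all 6 libraries. None of the 15 was called by edgeR (0 of 15, with 7 lower and 1 higher before adjustment at 0.05), whereas DESeq2 called 3 lower and limma-voom 0, and their median log2 change of -0.40 was -0.13 without control replicate 3. Over all genes DESeq2 called 303 of 18913 lower, and no such share was taken before adjustment.

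**Figure D2:**
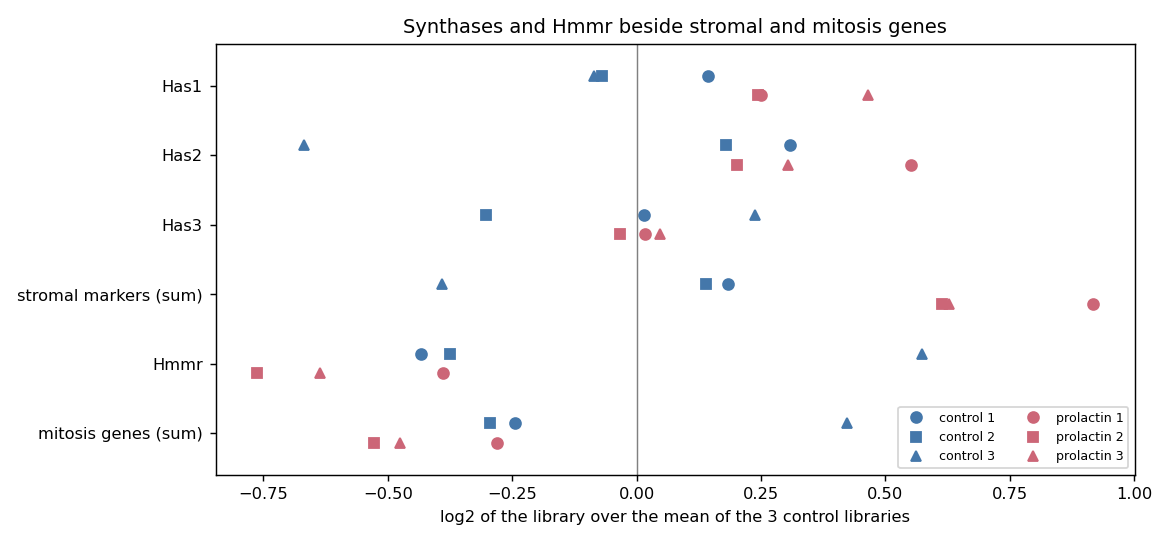
Level in each library relative to the mean of the 3 control libraries, on a log2 scale, for the synthases, the summed stromal markers, Hmmr and the summed mitosis genes. Control replicate 3 (blue triangle) is low for Has2 (-0.67) and the stromal markers (-0.39) and high for Hmmr (0.57) and the mitosis genes (0.42).

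Per length of transcript, Cd44 was the most abundant member in control islets at 15.8 ± 0.9 RPKM (CPM per kilobase of exon), followed by Hyal2 at 6.75 ± 0.54, Lyve1 at 2.30 ± 0.19, Has2 at 1.80 ± 0.58, Has1 at 1.11 ± 0.10 and Stab1 at 0.837 ± 0.196 RPKM. Hyal1, Has3, Hmmr and Stab2 followed at 0.477, 0.398, 0.310 and 0.259 RPKM, so that Stab2 was the lowest of the 10. In this order the values of Lyve1 and Has2, of Has2 and Has1, of Has1 and Stab1, and of each neighbouring pair from Hyal1 down to Stab2 overlapped between control libraries. Counted over the exon bases that Hyal1 shares with no other gene, its control level was 0.992 RPKM, next to Has1. In prolactin Stab2 stood seventh, at 1.01 ± 0.06 RPKM, just under Stab1 at 1.13 ± 0.04, and the order of the other 9 was as in control. Over unshared exon bases Hyal1 stood at 1.25 RPKM in prolactin, above Stab1 and Stab2, and Stab2 was then eighth.

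**Figure D3:**
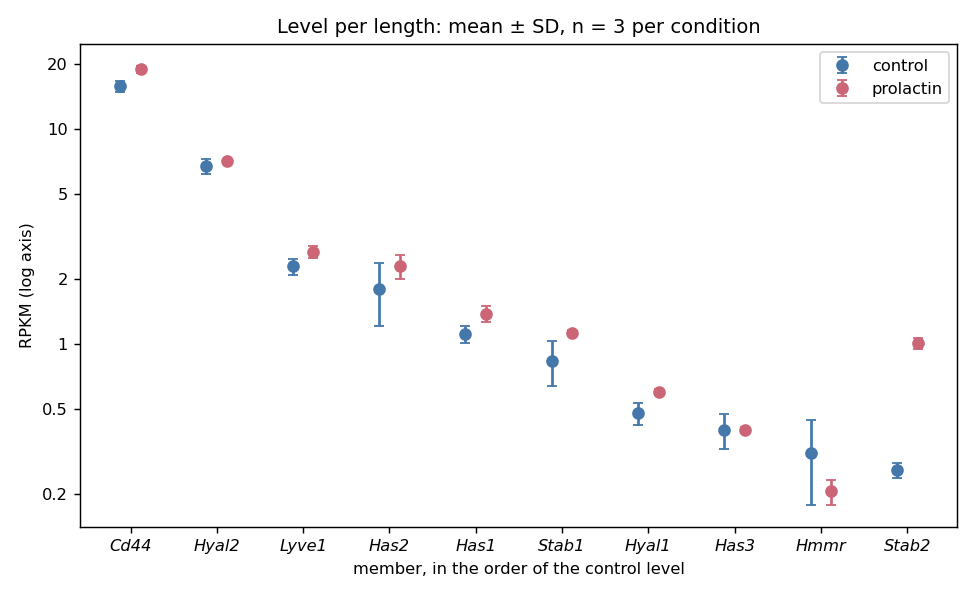
Level per length of the 10 genes in control and prolactin islets, as mean ± SD in RPKM on a log axis (n = 3 per condition), in the order of the control level. Stab2 moves from the last place (0.259 RPKM) to beside Stab1 (1.01 against 1.13 RPKM), and the other genes keep their order when levels are taken over all exon bases.

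In edgeR's quasi-likelihood fit across all genes, Stab2 was the 1 member called higher at an adjusted p under 0.05 and 0 were called lower, where 0.715% of all tested genes were called higher and 0.113% lower. DESeq2 also called Stab1 and Cd44, as does the authors' deposited table, in which the log2 changes are 1.96 for Stab2, 0.43 for Stab1 and 0.26 for Cd44. All 3 prolactin libraries lay above all 3 control libraries in 6 members (Stab2, Stab1, Lyve1, Cd44, Has1 and Hyal1), as in 11.3% of all genes, and below them in 0 members, as in 10.4% of all genes. The median log2 change of the 10 was 0.29, beside -0.000719 over all tested genes. Since the group was built around Stab2 with this contrast known, these counts are descriptions.

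The rest of the vascular and phagocytic markers had smaller differences than Stab2. In bulk islets a change in the number of cells of a type and a change in RNA per cell cannot be told apart. The summed level of 15 endothelial markers lay between 420.7 and 473.8 CPM in control and between 487.4 and 496.3 CPM in prolactin. All 15 log2 changes were positive, with a median of 0.16, and 1 of them rose: Vwf, which encodes von Willebrand factor of clotting (from 6.06 ± 0.39 to 9.15 ± 0.49 CPM, log2 change 0.60, adjusted p = 0.0134 by edgeR, n = 3 per condition); with prolactin replicates 2 and 3 summed it did not pass (adjusted p = 0.103; range over 17 alternative fits from 1.14e-08 to 0.106), nor without control replicate 2 or prolactin replicate 2 or 3. Before adjustment 8 of the 15 were higher at 0.05, and DESeq2 called 4, limma-voom 1, the replicate block 3, and the fit without control replicate 3 called 5. Over all genes DESeq2 called 776 of 18913 higher, and no such share was taken before adjustment. Among the endothelial markers that did not pass the reported test, the receptor genes Tek and Tie1 had log2 changes of 0.40 (edgeR adjusted p = 0.0901) and 0.32 (edgeR adjusted p = 0.0755). Per 100 CPM of these markers, Stab2 amounted to 0.567, 0.493 and 0.480 CPM in the control libraries and 1.67, 1.87 and 1.83 CPM in the prolactin libraries, so its difference was also present relative to the endothelial sum. Stab1 on the same scale was 1.64, 1.87 and 2.30 CPM in control and 2.30, 2.47 and 2.29 CPM in prolactin. Lyve1 was 1.41, 1.72 and 1.43 CPM in control and 1.48, 1.64 and 1.66 CPM in prolactin. On the endothelial scale the groups thus overlapped for both genes. Per 100 CPM of the macrophage markers below, Lyve1 was 5.095 to 5.671 CPM in control and 5.931 to 6.307 CPM in prolactin. Per 100 CPM of the sinusoidal markers below, Stab1 was 15.96 to 24.16 CPM in control and 25.15 to 26.92 CPM in prolactin. In these cases the groups did not overlap. They overlapped for Stab1 on the macrophage scale, for Lyve1 on the sinusoidal scale and for both on the lymphatic scale.

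Markers of the cell types that stabilin-2 is known from were uneven in level, and none of those tested passed in the reported fit. Of 9 sinusoidal endothelial markers 8 could be tested, and edgeR, DESeq2 and limma-voom each called 0 (edgeR 0 before adjustment at 0.05 too). Their sum, mostly from the endocytosis gene Ehd3, was 43.3 to 45.1 CPM in control and 43.8 to 45.2 CPM in prolactin. Gpr182, an endothelial receptor, measured 7.60 ± 1.27 CPM in control, above the Stab2 level there, and 8.69 ± 1.66 CPM in prolactin. Dnase1l3 had a log2 change of 0.39 (SE 0.25) and the transcription factor gene Maf 0.24 (SE 0.14), both from a control mean under 2 CPM. Oit3, a liver sinusoidal marker, stood at 0.116 ± 0.044 and 0.0970 ± 0.0250 CPM, and Clec4g had 37 reads in all 6 libraries together. Of 6 lymphatic markers the chemokine gene Ccl21a had 0 reads, Mmrn1 had 39, and edgeR, DESeq2 and limma-voom each called 0 of the 4 tested (edgeR 0 before adjustment). Their sum, 124.5 to 131.3 CPM in control and 140.7 to 142.5 CPM in prolactin, came mostly from Prox1, which islet endocrine cells are also known to express. Flt4, the receptor for VEGF-C, measured 14.6 ± 2.4 and 16.5 ± 0.5 CPM, and Pdpn, which encodes podoplanin, 11.5 ± 3.7 and 15.3 ± 3.3 CPM. All 4 tested lymphatic markers had a positive log2 change, and the libraries of the 2 conditions overlapped for each of them. The replicate block and the fit without control replicate 3 each called 1 of the 4 lymphatic markers higher. Over all genes these fits called 539 of 23924 and 365 of 24448 higher. The 14 macrophage and leukocyte markers summed to 119.8 to 128.3 CPM in control and 115.9 to 135.0 CPM in prolactin, a range that spans the control range, and 0 of 14 were called by edgeR, by DESeq2 or by limma-voom (edgeR 0 before adjustment).

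**Figure D4:**
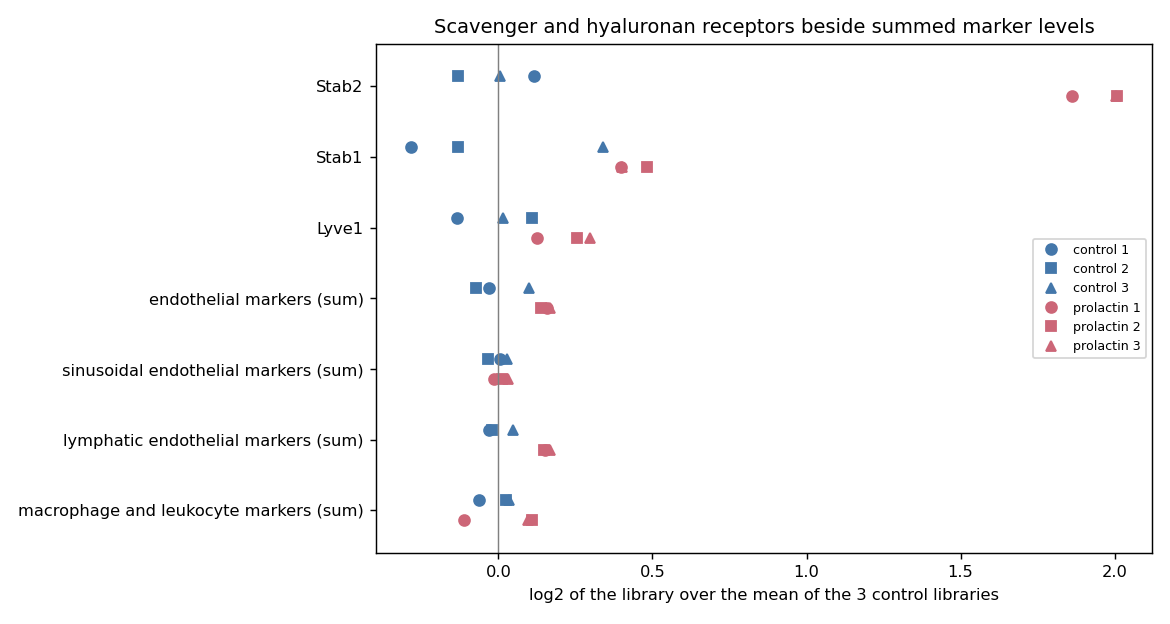
Level of Stab2, Stab1 and Lyve1 and summed levels of 4 marker lists in each library, relative to the mean of the 3 control libraries on a log2 scale. The prolactin libraries stand 1.86 to 2.01 above the control mean for Stab2, and no more than 0.17 above it for any of the 4 marker sums. The sinusoidal sum comes mostly from Ehd3 and the lymphatic sum mostly from Prox1, so these 2 sums mainly show those genes.

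At the Stab2 locus the surrounding genes described here did not pass the test. Nt5dc3, which ends 2.8 kb from Stab2, went from 85.2 ± 4.1 to 82.1 ± 3.5 CPM (log2 change -0.05, edgeR adjusted p = 0.731, n = 3 per condition). Ttc41 at 64.4 kb, Fabp3-ps1 at 108.8 kb and 1700113H08Rik at 50020 bases had log2 changes of 0.16, 0.50 and 0.76, those of Fabp3-ps1 and 1700113H08Rik from levels under 0.4 CPM. edgeR and limma-voom called 0 of these 4 genes and DESeq2 0 of the 3 it tested (edgeR 0 before adjustment at 0.05). Stab2 shares 1.61% of its exon bases with Gm16268, a locus on the opposite strand at 0.075 CPM. Counts made without strand cannot part the 2 genes there, and the recorded counting gives reads that touch both to neither.

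Across the 6 libraries, the named genes whose log2 CPM followed Stab2 most closely, among 13169 whose mean reached 1 CPM, were Cish (Pearson r = 0.999), Zdhhc22 (0.997), Amigo2 (0.993), Tph1 (0.993) and Fev (0.992). Cish encodes a feedback inhibitor of cytokine receptors, Zdhhc22 a protein of the palmitoyltransferase family, Amigo2 an adhesion protein, Tph1 the serotonin-synthesis enzyme and Fev a transcription factor of serotonergic neurons. All 5 rose, Cish from 8.16 ± 0.58 to 39.8 ± 2.9 CPM and Fev from 7.21 ± 0.08 to 10.4 ± 0.5 CPM. With 3 libraries in each of 2 conditions such an r mostly records the step between conditions, and over the deviations from the condition means it was 0.81 for Cish, 0.63 for Zdhhc22, 0.73 for Fev, 0.08 for Amigo2 and -0.18 for Tph1. Among the other members, r with Stab2 was highest for Cd44, at 0.900 (place 436), while Stab1 had 0.760 (place 1320) and Hmmr -0.599.

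Among the other genes of hyaluronan handling, none passed the reported test. Of 57 tested genes in 5 lists (breakdown, binding proteins, precursor supply, stabilin partners and CD44 partners), edgeR called 0, with 16 higher and 3 lower before adjustment at 0.05, while DESeq2 called 5 higher and 1 lower and limma-voom 0. The median log2 change was 0.08. Without control replicate 3, 1 was called higher and 1 lower. With the replicate number as a block, 6 were called higher and 1 lower. Over all genes, DESeq2 called 776 of 18913 higher and 303 lower. The fit without control replicate 3 called 365 of 24448 higher and 241 lower, and the replicate block 539 of 23924 and 167. No share over all genes was taken before adjustment, so the unadjusted counts of this and the other lists are descriptions without a baseline.

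In breakdown, the surface hyaluronidase gene Cemip2 (Tmem2 in the files) had a log2 change of 0.15, Cemip, another hyaluronan-degrading protein, 0.26, and Hyal3 0.32. These were the rises: of the 6 tested breakdown genes, 3 had a positive log2 change, the median was 0.036 and the lowest value -0.30. All prolactin libraries lay above all control libraries for 3 of the 6 and below them for 2. The list summed to 277 to 306 CPM in control and 275 to 278 CPM in prolactin. The hyaluronidase-family genes Hyal4, Hyal5, Hyal6 and Spam1 had between 6 and 22 reads in all libraries together and were not tested.

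Among binding proteins, the link protein gene Hapln4 was abundant, with 97.9 ± 6.7 CPM in the control and 120.7 ± 8.7 CPM in the prolactin libraries (log2 change 0.30, edgeR adjusted p = 0.102, n = 3 per condition). Tnfaip6, whose product TSG-6 transfers heavy chains onto hyaluronan, had a log2 change of 0.55 (SE 0.20), the hyaluronan receptor gene Layn 0.33 and the bikunin precursor Ambp 0.15. Of the 21 tested genes of binding proteins, 12 had a positive log2 change, and the median was 0.092. In the supply of UDP-sugars, Gfpt1, the entry enzyme of the hexosamine pathway, stood at 612.8 ± 9.9 and 652.4 ± 10.6 CPM, and its paralog Gfpt2 had a log2 change of 0.38 (SE 0.15) near 2 CPM. The pathway enzymes Pgm3 and Uap1 had log2 changes of 0.06 and 0.08. Of the 8 tested supply genes, 5 had a positive log2 change.

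Among stabilin ligands and partners, the growth factor gene Gdf15 went from 8.29 ± 0.22 to 10.5 ± 0.9 CPM (log2 change 0.34, edgeR adjusted p = 0.0950, n = 3 per condition). Sparc, a matrix protein that stabilin-1 takes up and stromal cells also make, had a log2 change of 0.43 (SE 0.11), Tgfbi 0.18 and the sorting nexin gene Snx17 0.12. Of the 10 tested stabilin ligands and partners, 7 had a positive log2 change. Among CD44 partners, the membrane protease gene Mmp14 had a log2 change of 0.48 (SE 0.13), the cytoskeletal linkers Msn and Ezr 0.31 and 0.19, and the sheddase gene Adam17 -0.16. Mmp9, a protease that docks on CD44, had the highest log2 change of the list at 1.01 (SE 0.39) but overlapped between conditions (adjusted p = 0.281, edgeR).

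Other scavenger and endocytic receptors had smaller log2 changes than Stab2. Of 15 tested, edgeR called 0 (3 higher before adjustment at 0.05), DESeq2 2 higher and limma-voom 0, and the log2 changes ran from -0.35 to 0.50 around a median of 0.14. Lrp1, a large endocytic receptor, went from 127.2 ± 2.0 to 168.6 ± 17.9 CPM (log2 change 0.41, edgeR adjusted p = 0.0501, n = 3 per condition) and passed in 4 of 17 alternative fits, with adjusted p from 8.88e-05 (DESeq2) to 0.193 (prolactin replicate 3 left out). The fatty-acid scavenger receptor Cd36 had a log2 change of 0.26, Scarf1, a scavenger receptor of endothelial cells, 0.20, and Megf11 0.30.

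**Figure D5:**
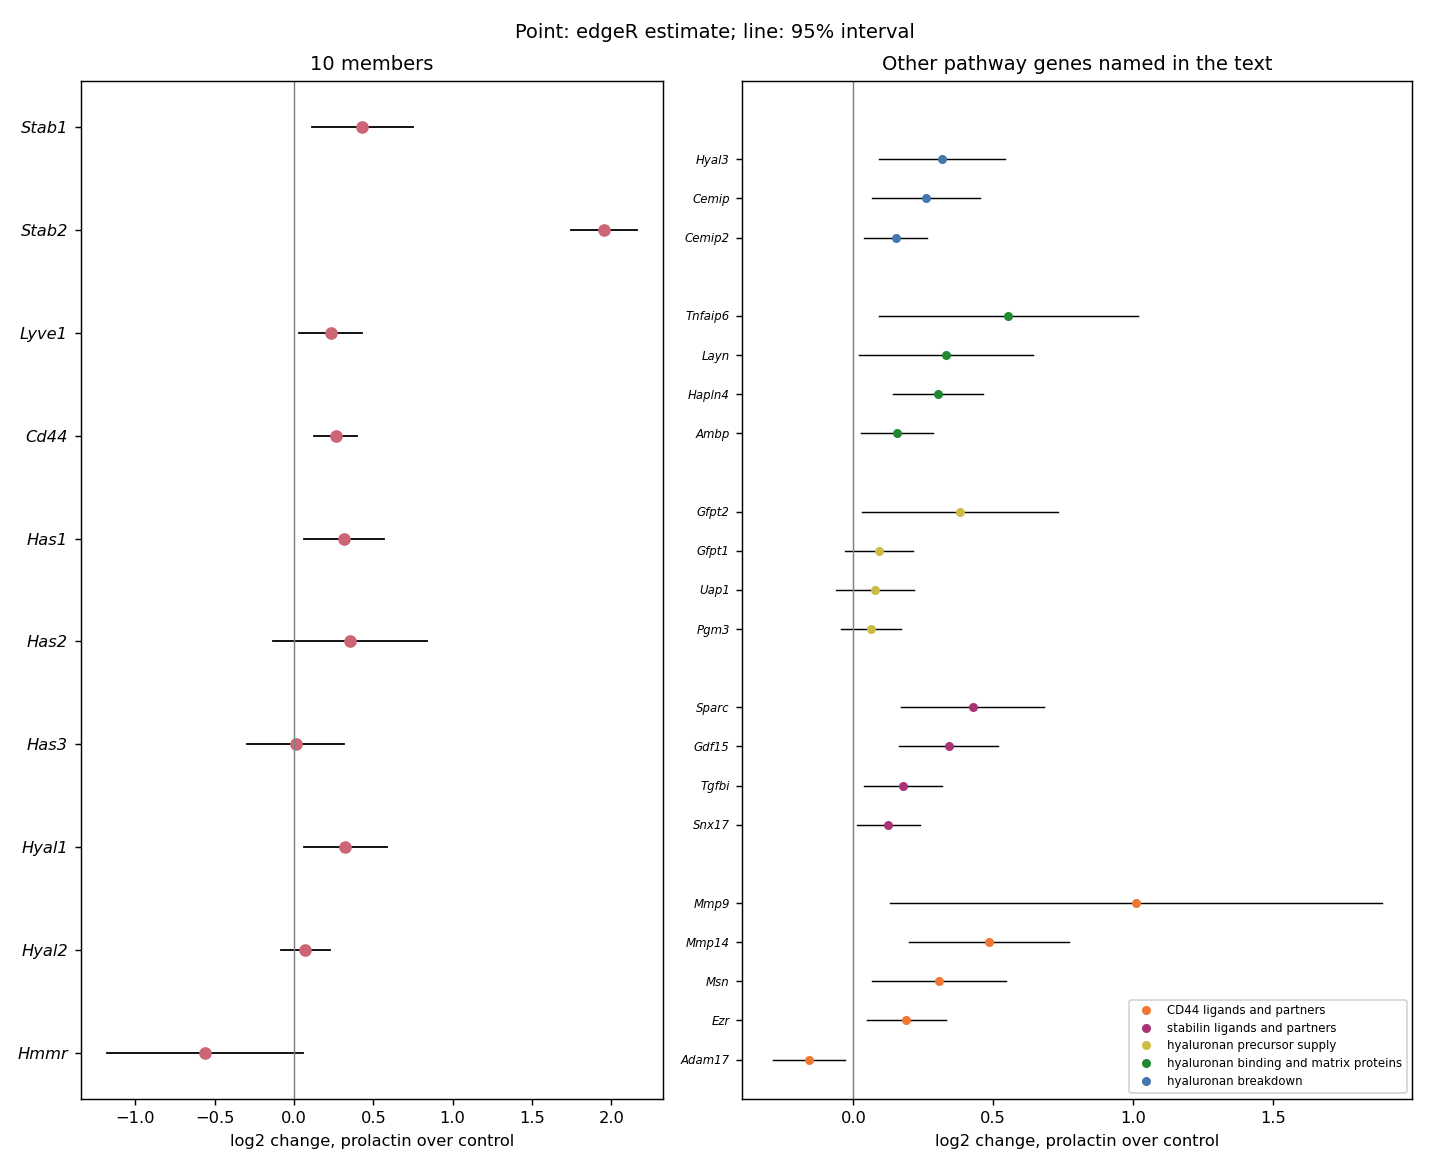
Log2 change of prolactin over control with its 95% interval from the edgeR fit, for the 10 genes (left) and for the genes of the 5 other lists that the text names, mostly those with the smallest p-values in each list (right). Stab2 at 1.95 lies beyond all of them, and Mmp9, next at 1.01, has an interval from 0.13 to 1.89.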

How the data were processed

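Gene-level read counts of 6 islet libraries (polyadenylated RNA) were used. The counts were made by featureCounts 2.0.3 with GENCODE M10 gene models, grouped by gene name, with no strand option, per the file headers, and the submitters' processing notes name mm10, SAMtools 1.21, Subread 2.1.0 and DESeq2. No source used here names the aligner. The header's command asks for paired reads without counting pairs, so mates may count separately and no interval from counting error is given. The authors' deposited table holds log2 fold changes with standard errors, a test statistic (a score), p-values with adjusted p-values, and a mean signal per gene, per the file headers.

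From the counts, edgeR 4.0.16 (R 4.3.3) took TMM factors and the filterByExpr filter (count at least 10, total at least 15). A quasi-likelihood fit on condition gave two-sided p-values, Benjamini-Hochberg adjusted over 23924 genes, with a threshold of 0.05. SEs came from the test statistic. RPKM use the exon length in the files. Likeness to Stab2 used log2(CPM + 0.5). Members and lists were chosen with earlier results of these data known. Genes were named by a rule: all members, up to 4 genes with the smallest p-values per list and any that passed, the 5 genes most like Stab2, the 3 nearest tested genes on each side of it, and the most abundant gene of each cell-type list. A few genes under this rule are not reported here. Cemip2 was matched through a RefSeq synonym. Mesothelial markers summed to 68.9 to 85.1 CPM in control and 72.2 to 78.8 CPM in prolactin, acinar markers to 494.1 to 2739 and 805.7 to 1843 CPM, and edgeR called 0 of 3 and 0 of 8 of them (0 before adjustment). Mmp9, Clec4g, Ccl21a, Mmrn1, the hyaluronidase-family genes with few reads and Gm16268 were named after their values were seen. Alternatives were other scalings, filters and tools (DESeq2 1.42.0, limma-voom of limma 3.58.1), the replicate block, leaving out libraries or abundant genes, summing prolactin replicates 2 and 3, and halved counts. Promoter sequences are RefSeq's on GRCm38.p6.

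The edgeR procedure was tested on simulated data for the prolactin and control comparison (23924 genes, 3 simulations): for a log2 change of 0.5, 51.3% of the altered genes were found, for 1 it was 68.0% and for 2 it was 96.7%, and 10.4% of its calls were false.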

Additional observations from a re-analysis of the deposited data

How the results depend on the processing

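Stab2 passed in all 17 alternative fits, with log2 changes from 1.89 to 2.02, and 0 of the 10 genes were called lower in any of them. Stab2 was picked on this contrast in these same libraries, so its passing is a description and not support. The number of the 10 called higher, 1 in the reported fit, was 3 with DESeq2 (Stab1 and Cd44 added), 2 with the replicate block (Cd44 added) and from 1 to 2 over the fits without 1 library (Stab1 added without control replicate 3). Over all genes, 171 were higher and 27 lower in the reported fit; DESeq2 gave 776 and 303, the replicate block 539 and 167, prolactin replicates 2 and 3 summed 48 and 2, and leaving out 1 library from 43 to 365 and from 1 to 241, the highest without control replicate 3. A filter of 1 CPM in 3 libraries gave 43 lower genes, and edgeR's legacy method 156 and 25. The cause was not tested, beyond the fewer libraries in the fits that leave out or sum some. Whether same-numbered libraries pair was not settled. The correlations of their deviations from the condition means were 0.464, 0.300 and -0.011 for replicates 1, 2 and 3. Control replicate 2 had 0.356 with prolactin replicate 3, but prolactin replicates 2 and 3 were too alike for this to tell a pairing apart. Directions turned in 5 of 1250 fits of single named genes, each for a gene past no threshold and each on leaving out 1 library: Has3 ranged from -0.11 to 0.13, Oit3 from -0.564 to 0.0704, Ehd3 from -0.0907 to 0.0115 and Reln from -0.0197 to 0.0875. Depth limits the lowest levels most: Oit3, near 0.1 CPM, rested on 208 reads over 6 libraries.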
